A study of Mus musculus with 6 samples.

Results

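The interval from day 6 to day 10 of osteogenic culture was a stretch of a mouse fat stem cell time course. Most genes at least 2-fold apart across it were lower at its end. It was measured as the day 10 array against the day 6 array, over the genes that either array detected above its negative controls (detection p under 0.01). These were 8273 of the 9751 genes with a symbol, or 84.84%. Both arrays detected 7719 of them, the day 6 array alone 337 and the day 10 array alone 217. Each day has 1 array, so the differences have no replicate check, no error and no p-value, and a difference below means only that these 2 arrays differ.

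The cells were mesenchymal stem cells from the dorsal and inguinal fat depots of the C57BL/6 mouse strain, and their RNA was read on biotin-labelled Illumina bead arrays. The 6 arrays cover days 0, 1, 3, 6, 10 and 14, where day 0 is the undifferentiated control in the series' design. The later arrays came from cells kept in DMEM-F12 with ascorbic acid, β-glycerophosphate, dexamethasone, DMSO and a raised share of fetal bovine serum. All 6 samples carry the same protocol text, in which the medium was applied and RNA taken after the stated days, day 0 included. No later control without the medium is among them, so time in the medium and time in culture cannot be told apart. The age and sex of the mice, and whether cells were pooled from several mice, are not stated in the labels.

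Ascorbic acid is the cofactor of the enzymes that hydroxylate collagen, β-glycerophosphate supplies phosphate for mineral, and dexamethasone is a synthetic glucocorticoid. Cultured stromal cells commonly build actin stress fibres and a collagen-rich matrix, and they divide until they become crowded. Cells that leave the cell cycle shut off a shared set of replication and mitosis genes, and cells that make membrane switch on the sterol synthesis pathway through the SREBP transcription factors.

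Levels are normalized log2 intensities, and levels over time are given in the order of days 0, 1, 3, 6, 10 and 14. A difference is the log2 level on day 10 minus that on day 6, so a negative value means lower on day 10. The arrays detected between 12891 and 13980 of 46613 probes, and their highest raw signals lay between 62522 and 66712. A probe near such a maximum can hide part of a difference, so a gene at 50% or more of the highest signal is marked as unresolved in size. On day 6, 116 genes stood that high, and on day 10, 97. A fold is given as "at least" where only 1 of the 2 arrays detected the gene, measured against the lowest detected level of the other array or the gene's own level there, whichever was higher. Of the stromal markers, 14 of the 16 that have a probe with a symbol here were detected on both days, against 7719 of all 9751 genes. On either day 5 of 5 adipocyte identity markers, 4 of 5 endothelial and 3 of 4 pericyte markers were detected, so detection alone does not name the cells. Of 16 listed leukocyte markers 3 have such a probe, and 2 of them, Lyz2 and Cd14, were detected.

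From day 6 to day 10, 354 genes were at least 2-fold lower, 4.28% of those compared, and 107 were at least 2-fold higher, 1.29%. Lower genes made up 76.79% of the 461 genes apart. At 4-fold or more the counts were 53 lower and 3 higher. The day 6 array alone detected 139 of the 354 lower genes, and the day 10 array alone 38 of the 107 higher ones. The 2-fold counts here and below use normalized levels even where 1 array did not detect the gene. A counted gene can therefore have a bound under 2-fold, as have Alpl (1.14), Idi1 (1.15) and Mvd (1.81) below. Among the 7719 genes detected on both arrays 215 were lower and 69 higher, and without background correction 190 and 46. The counts for gene lists below stand against these figures for all genes. The median difference of all 8273 genes was 0.01, a value that quantile normalization holds near 0. Without any scaling between arrays that median was 0.097, and the split was 296 lower and 148 higher, or 66.67% lower. From day 0 to day 1, 297 genes were lower (3.65%) and 323 higher (3.97%). From day 1 to day 3, 467 were lower (5.62%) and 722 higher (8.69%). From day 3 to day 6, 504 were lower (5.98%) and 564 higher (6.69%). From day 10 to day 14, 21 were lower (0.252%) and 80 higher (0.961%). At 2-fold, lower genes outnumbered higher ones at no other step with quantile normalization. At 4-fold they also did so from day 0 to day 1, with 44 lower and 31 higher, but not at the remaining steps. With median scaling day 3 to day 6 had 541 lower and 537 higher genes, and without scaling day 1 to day 3 had 721 lower and 580 higher and day 3 to day 6 had 543 and 536. Successive steps share an array, so their overlap is not given.

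**Figure D1:**
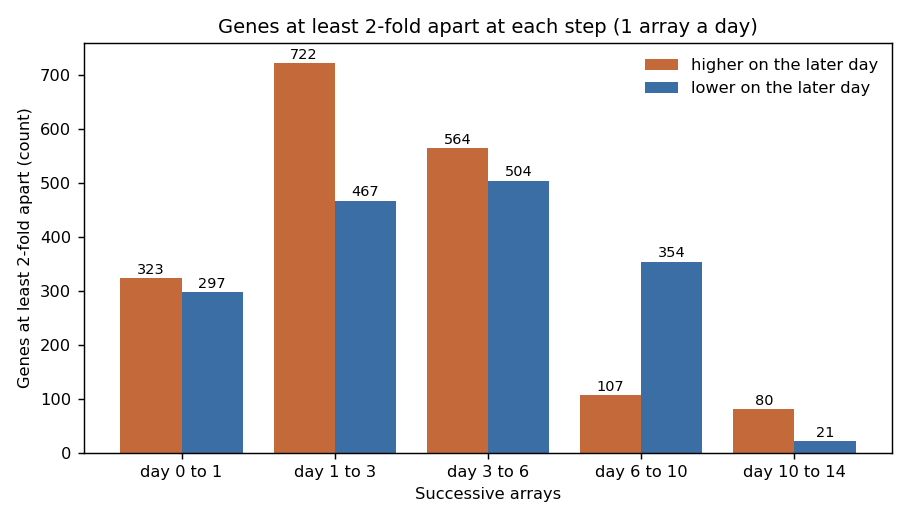
Genes at least 2-fold higher (orange) and lower (blue) on the later of each pair of successive arrays, as counts of genes detected on either array, with 1 array a day. The step from day 6 to day 10 has 354 lower and 107 higher genes.

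The direction depended on which probes were counted. Among the 2812 detected probes that carry no gene symbol, 85 were at least 2-fold lower and 207 at least 2-fold higher, so 29.11% of those apart were lower. Over every detected probe, 545 were lower and 426 higher, or 56.13% lower. The mainly downward step is therefore a statement about the probes with a gene symbol, of which 460 were lower and 219 higher. The lower genes were also spread over all levels. Ranked by their mean level on the arrays of days 0, 1, 3 and 14, 5.51% of the weakest 2069 genes and 3.05% of the strongest 2068 were at least 2-fold lower. The higher genes lay mostly among weak genes, with 3.77% of the former and 0.15% of the latter.

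The genes of DNA replication and mitosis held the largest share of lower genes among the 38 lists described, apart from the skeletal muscle markers, of which only Acta1 has a probe with a symbol here. Of the 30 detected, 19 were at least 2-fold lower and 0 at least 2-fold higher, against 4.28% lower among all genes, with a median difference of -1.53. Kif23, a kinesin of the midbody that separates daughter cells, stood at 11.91, 12.74, 11.80, 9.20, 5.34 and 5.84. Its day 10 signal was not above background, and the gene was at least 5.01-fold lower than on day 6. A second probe of Kif23 differed by -1.18, so its probes disagree on the size.

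Prc1, which bundles the microtubules of the central spindle, stood at 13.46, 13.92, 12.72, 10.86, 8.35 and 8.33, a difference of -2.51. Both arrays detected Prc1, so that fold of 5.69 is measured rather than a bound. Cdca3, a trigger of mitotic entry, stood at 12.38, 13.45, 12.59, 9.65, 6.78 and 7.46 and was at least 6.85-fold lower. Plk1, a mitotic kinase, stood at 12.45, 13.23, 12.01, 9.36, 7.22 and 7.19, a difference of -2.14. Uhrf1, which keeps DNA methylation through replication, stood at 12.63, 13.36, 12.12, 9.22, 7.09 and 7.12, a difference of -2.13. All 5 were highest on day 1, were already lower on day 6 than on day 3, and were at their lowest on day 10 or day 14.

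Birc5 (survivin), a subunit of the chromosomal passenger complex, was at least 3.36-fold lower, and Aurka, a spindle pole kinase, at least 3.40-fold lower. Not every gene of the list followed. Pcna, the sliding clamp of DNA polymerase, differed by 0.38, and Mcm7 and Mcm4, subunits of the replicative helicase, by 0.58 and 0.04. The list's size also rests on weak signals: 13 of the 30 were detected on day 6 alone. Among the 17 detected on both days, 7 were at least 2-fold lower and the median difference was -0.82. In that set their share was below that of the fibrillar collagens described next. That order depends on signals near the array maximum. With probes near it left out, 2 of 5 fibrillar collagens were at least 2-fold lower, with a median of -0.59.

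The promoters of these genes are shown because many of them hold the same pair of short motifs. The windows run from 250 bases before to 50 bases after the start of each gene, 300 bases, from RefSeq on the GRCm38.p6 build, each printed 5′ to 3′ along the gene's own strand. The motifs were TTTGAA, the core of the cell cycle genes homology region bound by MuvB complexes, and CCAAT, the box bound by NF-Y, searched on both strands (as TTCAAA and ATTGG on the other) after results of these data were known. Capitals mark those motifs, which do not overlap in these windows. Prc1 has 2 windows in the table, and 1 is printed.
Kif23 (chr9:61946750-61947049, minus strand): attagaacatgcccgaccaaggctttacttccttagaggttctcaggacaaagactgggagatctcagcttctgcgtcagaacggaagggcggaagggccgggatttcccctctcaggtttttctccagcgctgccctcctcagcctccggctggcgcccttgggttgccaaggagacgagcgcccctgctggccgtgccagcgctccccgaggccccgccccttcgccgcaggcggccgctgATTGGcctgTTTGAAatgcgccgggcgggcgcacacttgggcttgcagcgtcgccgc
Cdca3 (chr6:124829926-124830225, plus strand): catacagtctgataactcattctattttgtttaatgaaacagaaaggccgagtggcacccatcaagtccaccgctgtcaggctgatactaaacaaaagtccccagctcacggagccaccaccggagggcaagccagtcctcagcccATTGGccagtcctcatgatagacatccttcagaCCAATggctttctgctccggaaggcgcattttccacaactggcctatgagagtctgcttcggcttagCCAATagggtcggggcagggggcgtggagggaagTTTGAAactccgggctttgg
Prc1 (chr7:80294201-80294500, plus strand): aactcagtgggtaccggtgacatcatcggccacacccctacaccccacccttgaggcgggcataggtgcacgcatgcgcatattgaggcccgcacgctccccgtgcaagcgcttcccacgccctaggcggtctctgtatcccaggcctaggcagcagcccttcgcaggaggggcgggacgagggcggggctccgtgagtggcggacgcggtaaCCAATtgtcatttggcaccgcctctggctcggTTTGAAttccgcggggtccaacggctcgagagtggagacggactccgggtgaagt

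Of the 26 list members with a window, 13 held TTTGAA, or 50.0%, against 13.59% of the detected genes with a window and 20.23% of all 27025 genes in the table. CCAAT was in 21 of the 26, or 80.77%, against 43.28% of detected genes and 41.06% of all. Both motifs stood in the same window for 13 of the 26, against 5.50% of detected genes and 7.97% of all genes. Among the 271 lower genes with a window, whatever their function, TTTGAA was in 18.45%. A match describes the letters only, and binding was not measured here.

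The fibrillar collagens, which form the rope-like fibres of skin, tendon and bone, were lower in all 7 detected members, and 4 of the 7 by at least 2-fold. Their median difference was -1.13, and the sum of their linear levels went from 120361 on day 6 to 35126 on day 10. Both values include Col1a1 and Col5a1, which were near the array maximum on day 6. Without genes near the maximum the median was -0.59. Col1a1, the main chain of type I collagen, stood at 15.74, 15.16, 15.67, 15.19, 12.08 and 12.15, an 8.66-fold difference of -3.12. Its signal was 58.5% of the array's highest on day 6 and 6.84% on day 10, so its size on day 6 is unresolved. The 4 arrays up to day 6 were high and the 2 later arrays low, with no overlap between them.

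Col1a2, the partner chain of Col1a1, stood at 13.92, 13.43, 14.25, 14.20, 12.26 and 12.51, a difference of -1.94. Col3a1, which forms the thinner fibres of loose tissue, stood at 14.29, 13.77, 14.78, 13.83, 11.21 and 12.06, a difference of -2.61. A second probe of Col3a1 differed by -3.20. For both genes the 4 arrays up to day 6 lay above the 2 later ones without overlap. Col5a1, a chain that sets fibre width, stood at 15.71, 15.40, 15.71, 15.47, 14.34 and 14.63, a difference of -1.13, and is unresolved in size at 71.7% of the highest signal on day 6. The other 3, Col5a2, Col24a1 and Col27a1, differed by -0.59, -0.54 and -0.23, each under 2-fold on its brightest probe. A second probe of Col5a2 differed by -2.10, so its probes disagree on the size.

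The enzymes that mature and cross-link collagen were lower in 20 of 23 detected members, 4 of them by at least 2-fold, with a median of -0.74. Pcolce2, an enhancer of procollagen processing, differed by -1.34. P4ha3, a subunit of prolyl 4-hydroxylase, differed by -1.21, and Loxl2 and Loxl4, lysyl oxidase enzymes that cross-link collagen, by -1.20 and -1.08. The largest difference the other way was that of P4ha1, another hydroxylase subunit that hypoxia induces, at 0.86. A second probe of P4ha1 differed by 0.04 only.

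The basement membrane genes had 5 of 16 detected members at least 2-fold lower and a median of -0.61. Col15a1, a collagen next to basement membranes, stood at 10.25, 9.84, 11.09, 10.28, 8.55 and 8.15, a difference of -1.73. Col4a6 and Col4a5, chains of the type IV network, differed by -1.67 and -1.24, and Col18a1, the source of endostatin, by -1.36. Both type IV chains were at their highest on day 6, with Col4a5 at 12.04, 12.85, 13.24, 13.96, 12.72 and 13.06. Both type IV chains were therefore still above their day 0 level on day 10, in contrast to Col1a1.

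Sparc, a calcium-binding glycoprotein of mineralising matrix that is in both the basement membrane and the matricellular lists, stood at 14.27, 13.99, 14.43, 14.21, 12.52 and 12.89, a difference of -1.69. The matricellular list had 7 of 25 detected members at least 2-fold lower and a median of -0.37, and 6 of the 24 detected on both days. Cthrc1, a secreted protein of active fibroblasts, stood at 10.98, 11.72, 12.75, 11.75, 8.98 and 10.80, a difference of -2.77. Ccn4, a WNT-induced CCN protein, differed by -1.59, tenascin C (Tnc) by -1.58 and periostin (Postn) by -1.42. Ccn2, the connective tissue growth factor, differed by -0.51 only. The elastic fibre list had 2 of 13 at least 2-fold lower, and 1 of the 12 detected on both days. The proteoglycan list had 5 of 19 at least 2-fold lower, and 2 of the 16 detected on both days. Of all genes 4.28% were at least 2-fold lower, and 215 of the 7719 detected on both days. The proteoglycan list included the syndecan Sdc3 at -1.68 and fibromodulin (Fmod), a small leucine-rich proteoglycan, which was at least 1.59-fold lower.

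The proteins that cut matrix and their inhibitors were lower by at least 2-fold in 4 of 27 detected members, against 4.28% of all genes. Their median was -0.32. Among the 25 detected on both days 2 were at least 2-fold lower, against 215 of all 7719 such genes, with a median of -0.07. Adamts4, an aggrecanase, stood at 10.47, 10.33, 10.38, 9.01, 6.73 and 7.88 and was at least 4.39-fold lower. Adam12, a membrane metalloprotease, differed by -1.80. Timp1, an inhibitor of metalloproteases, stood at 15.14, 15.48, 15.27, 15.27, 13.81 and 14.83, a difference of -1.46, and its signal was at 61.8% of the array's highest on day 6. Cemip, which takes part in breaking down hyaluronan, had the largest difference among the genes detected on both arrays. It stood at 14.07, 13.60, 11.66, 13.33, 9.34 and 11.05, a 15.9-fold difference of -3.99.

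**Figure D2:**
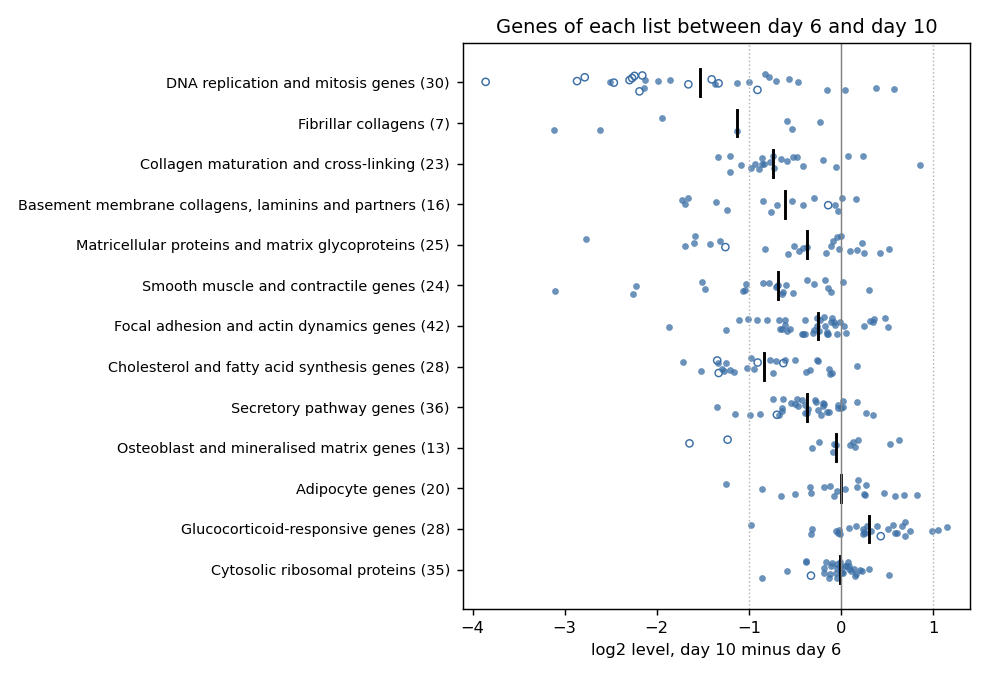
Difference in log2 level from day 6 to day 10 of each detected gene (points) in 13 gene lists, with the list median as a black bar and the number of genes in brackets. Filled points were detected on both arrays, open points on 1 of them, and dotted lines mark 2-fold. Over all points the mitosis list has the lowest median of the 13 at -1.53. Among filled points its median is -0.82, and that of the fibrillar collagens is -1.13, or -0.59 without genes near the array maximum.

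The contractile genes, which encode the actins, myosins, tropomyosins and their regulators found in smooth muscle and in stress fibres, were lower in 22 of 24 detected members. At least 2-fold lower were 8, with 0 at least 2-fold higher, and the median was -0.69. Actg2, the enteric smooth muscle actin, stood at 15.54, 15.45, 13.73, 14.37, 11.26 and 12.42, an 8.60-fold difference of -3.10. Tagln (transgelin), an actin-binding protein of smooth muscle, stood at 13.26, 12.81, 10.79, 11.14, 8.88 and 9.99, a difference of -2.25. Both were high on days 0 and 1, lower on days 3 and 6, and lowest on day 10.

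Myosin light chain kinase, Mylk, which starts smooth muscle contraction, stood at 14.41, 13.95, 14.10, 15.21, 12.98 and 14.28, a difference of -2.23. Its signal reached 59.5% of the array's highest on day 6, and its other 2 probes, which lay lower, differed by -2.65 and -2.95. Tpm2, a tropomyosin, stood at 15.47, 15.50, 14.37, 14.87, 13.36 and 13.96, a difference of -1.51. Myh11, the smooth muscle myosin heavy chain, stood at 9.82, 8.73, 6.71, 9.50, 8.02 and 9.84, a difference of -1.48. Mylk was at its highest on day 6, while Myh11 was about as high on day 14 as on day 0.

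The tropomyosin Tpm1, the myosin light chain Myl6 and the tropomyosin Tpm4 differed by -1.06, -1.04 and -1.03. Tpm4 was near the array maximum on day 6, and its other 3 probes disagreed, with differences of -1.62, -1.75 and 0.22. Acta2, the smooth muscle actin that marks myofibroblasts, is a case of a signal near the ceiling. Its brightest probe stood at 15.88, 15.71, 15.65, 15.79, 15.20 and 15.80, a difference of -0.59, with 88.3% of the highest signal on day 6 and 54.8% on day 10. Its other 2 probes differed by -2.97 and -2.69. The first of them stood at 15.12, 14.71, 13.54, 14.00, 11.04 and 12.66, so Acta2 fails the 2-fold count only on its brightest probe. Actb, another actin of the list, had 94.15% of the highest signal on day 6 and 61.35% on day 10. Its brightest probe differed by -0.52 and its other probe by -1.13.

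**Figure D3:**
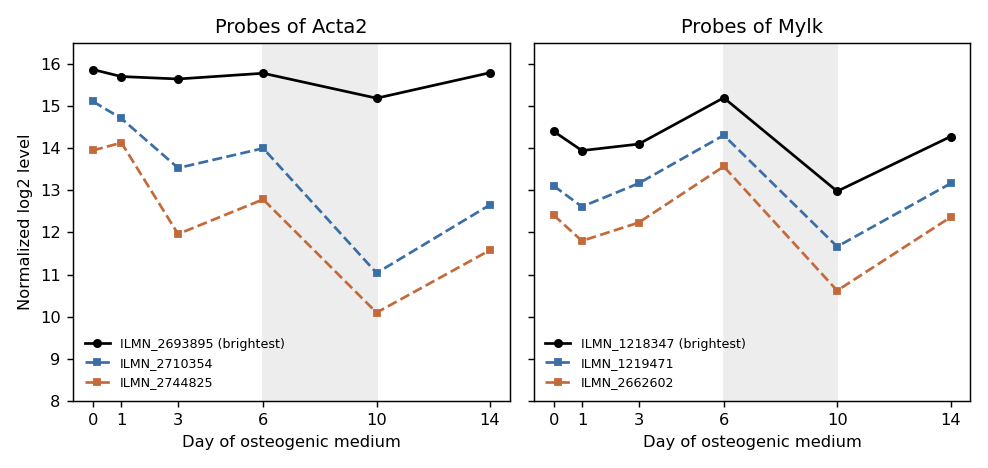
Normalized log2 level of every detected probe of Acta2 and Mylk on the 6 arrays, with the brightest probe in black and the interval from day 6 to day 10 shaded. The brightest Acta2 probe differs by -0.59 over that interval and the other 2 by -2.97 and -2.69.

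Acta1, the skeletal muscle actin, stood at 13.25, 11.89, 9.50, 10.16, 5.26 and 5.44, and on day 10 was at least 9.78-fold lower. It is the only skeletal muscle marker of 15 listed that has a probe with a symbol here, so no second marker was compared. Among genes of focal adhesions and actin turnover, 4 of 42 detected were at least 2-fold lower, with a median of -0.25. The 4 were integrin α3 (Itga3) at -1.87, the LIM protein Csrp1 at -1.25, Pdlim5 at -1.11 and ezrin (Ezr) at -1.01. The regulators of the SRF and MRTF pathway, which switches on contractile genes, had 0 of 9 past 2-fold in either direction. That is near the share for all genes, of which 94.43% differed by under 2-fold. Myocardin (Myocd), a coactivator of SRF, stood at 6.71, 9.50, 8.10, 10.57, 9.88 and 10.66, a difference of -0.69. Of 17 detected YAP and TEAD target genes 1 was lower, Ankrd1, a muscle ankyrin repeat protein, by at least 4.21-fold. That share, 5.88%, is near the 4.28% of all genes, and of the 16 detected on both days 0 were lower.

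The contractile promoters were searched for the CArG box, the site of SRF, and for CATTCC, the site of TEAD factors, on both strands. A gene was counted if any of its windows held the motif. The CArG box was in 2 of the 20 list members with a window, against 1.81% of all genes with a window. CATTCC was in 10 of the 20, against 16.58% of all. The window of Myl6 is shown because it is among those with a CArG box, in capitals. It is 1 of 2 windows for that gene, on the same build as above.
Myl6 (chr10:128492960-128493259, minus strand): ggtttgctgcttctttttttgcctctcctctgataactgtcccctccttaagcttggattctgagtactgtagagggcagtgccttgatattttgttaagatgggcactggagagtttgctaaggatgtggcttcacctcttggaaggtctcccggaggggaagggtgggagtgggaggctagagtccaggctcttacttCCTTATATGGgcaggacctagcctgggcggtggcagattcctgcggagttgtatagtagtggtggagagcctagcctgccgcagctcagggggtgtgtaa

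**Figure D4:**
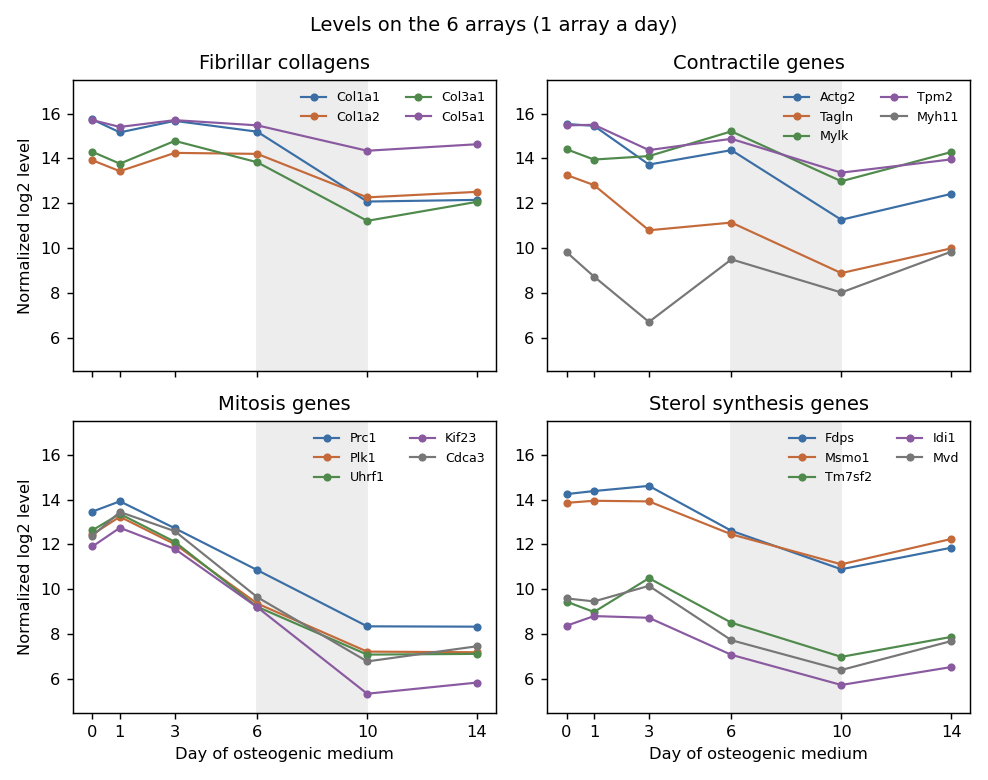
Normalized log2 levels on the 6 arrays of 4 fibrillar collagens and of 5 contractile, 5 mitosis and 5 sterol synthesis genes, with the interval from day 6 to day 10 shaded. Every gene shown was lower on day 10 than on day 6, by 1.94 for Col1a2, 3.10 for Actg2, 2.51 for Prc1 and 1.72 for Fdps, and Kif23, Cdca3, Idi1 and Mvd were not above background on day 10.

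The genes of cholesterol and fatty acid synthesis were lower in 27 of 28 detected members, 11 of them by at least 2-fold, with a median of -0.84. Fdps, which makes farnesyl diphosphate, stood at 14.24, 14.38, 14.61, 12.61, 10.89 and 11.85, a difference of -1.72. Msmo1, a sterol methyl oxidase, stood at 13.86, 13.95, 13.92, 12.45, 11.11 and 12.24, a difference of -1.34. Tm7sf2, a sterol reductase, stood at 9.45, 8.99, 10.49, 8.51, 6.99 and 7.88, a difference of -1.52. These genes were at their highest on day 1 or day 3, and all 3 were higher on day 14 than on day 10.

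Mvk, mevalonate kinase, differed by -1.21. Mvd and Idi1, later enzymes of the mevalonate pathway, were detected on day 6 only, at least 1.81-fold and 1.15-fold lower. Of the genes of fatty acid synthesis, Elovl6, an elongase, differed by -1.29, Fasn, the fatty acid synthase, by -0.33 and Acaca, which starts fatty acid synthesis, by 0.18. Srebf2, the factor that drives the sterol genes, differed by -0.13. On the 24 detected on both days 9 were at least 2-fold lower and the median was -0.75.

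Of the 22 members with a promoter window 19 held CCAAT, or 86.36%, against 43.28% of the detected genes with a window. That box often neighbours SREBP sites. The windows of Tm7sf2 and Idi1 are shown as examples, with CCAAT or its reverse ATTGG in capitals.
Tm7sf2 (chr19:6067801-6068100, minus strand): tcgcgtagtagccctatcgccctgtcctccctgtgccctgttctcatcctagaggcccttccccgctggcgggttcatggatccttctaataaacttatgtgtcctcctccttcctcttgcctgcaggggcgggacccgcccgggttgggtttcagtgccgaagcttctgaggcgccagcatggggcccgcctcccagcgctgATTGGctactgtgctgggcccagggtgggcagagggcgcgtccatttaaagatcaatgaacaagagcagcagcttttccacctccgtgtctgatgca
Idi1 (chr13:8885356-8885655, plus strand): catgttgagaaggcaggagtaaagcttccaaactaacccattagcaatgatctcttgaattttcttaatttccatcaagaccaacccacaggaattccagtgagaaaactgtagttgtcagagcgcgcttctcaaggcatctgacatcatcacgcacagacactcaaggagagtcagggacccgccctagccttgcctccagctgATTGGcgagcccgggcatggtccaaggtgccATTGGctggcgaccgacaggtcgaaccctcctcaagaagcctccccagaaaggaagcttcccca

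The machinery that folds and ships secreted proteins was lower by small amounts. Of 36 detected secretory pathway genes, 31 were below 0, against 4064 of all 8273 genes, and the median was -0.37. At least 2-fold lower were 2, or 5.56%, near the 4.28% of all genes. They were Kdelr3 at -1.35 and Kdelr2 at -1.15, receptors that return proteins to the endoplasmic reticulum. In the list of stress response genes of the endoplasmic reticulum, 3 of 27 detected were at least 2-fold lower and 1 higher. Of all genes 4.28% were at least 2-fold lower and 1.29% higher. Pdia6 and Pdia4, which form disulfide bonds, differed by -1.33 and -1.09. Trib3, a pseudokinase induced by ATF4, differed the other way by 1.34. Cytosolic ribosomal proteins had 0 of 35 past 2-fold and a median of -0.01, with 21 of them near the array maximum. Oxidative phosphorylation subunits had 0 of 37 past 2-fold and a median of -0.06.

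Secreted signals included Cxcl1, a neutrophil chemokine, which stood at 12.83, 13.69, 11.87, 11.32, 9.07 and 9.60, a difference of -2.25. The chemokine Ccl8 was at least 2.80-fold lower. In all, 4 of 13 detected chemokines, cytokines and prostaglandin genes were at least 2-fold lower, with a median of -0.45. Among the 10 detected on both days it was 2, with a median of -0.22. Rspo2, an amplifier of WNT signalling, stood at 10.08 on day 6 and at 7.69 on day 10, a difference of -2.38. Prl2c2, a proliferin hormone, stood at 6.98, 11.64, 11.69, 10.23, 7.33 and 9.04, a difference of -2.90. Its near-identical copies Prl2c3 and Prl2c4 may share signal with it, so the 3 count as uncertain.

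Genes of bone-forming and fat cells mostly differed by under 2-fold, as did 94.43% of all genes. Of 13 detected osteoblast genes 2 were at least 2-fold lower, against 4.28% of all genes. The median was -0.05, with a positive sign in 3 of 10 other settings. Both lower genes were detected on day 6 only, so their place in that count rests on day 10 levels not above background. Of the 11 detected on both days 0 were at least 2-fold apart, with a median of 0.10. The transcription factor osterix (Sp7) stood at 10.38, 11.60, 9.51, 7.99, 6.35 and 7.23 and was at least 2.17-fold lower, and alkaline phosphatase (Alpl) was at least 1.14-fold lower. Omd, osteomodulin, differed by 0.63. Of 20 detected adipocyte genes 1 was at least 2-fold lower, or 5.0%, near the 4.28% of all genes. It was the fatty acid carrier Fabp4 at -1.25, while the lipid droplet gene Plin4 differed by 0.68. Sox11, the factor in the title of the series, stood at 7.94 on day 6 and 7.01 on day 10, a difference of -0.93. The smaller sum of stromal marker levels, 157755 on day 6 and 94513 on day 10, includes Col1a1 and Col3a1. Of the 14 detected stromal markers 12 were below 0, with a median of -0.57. At least 2-fold lower were 4 and at least 2-fold higher 1, against 4.28% and 1.29% of all genes. The other 2 lower ones were the surface proteins Thy1 at -1.26 and Cd248 at -1.43, and the higher one was the adhesion protein Alcam at 1.01. Their part in the lower collagen levels was not tested. In RNA from whole cultures, fewer cells of a type and less RNA per cell cannot be told apart.

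Far fewer genes were higher on day 10. Gsta3, a glutathione transferase, stood at 7.84, 6.41, 6.16, 8.02, 10.34 and 10.46, a difference of 2.32, the largest among genes detected on both arrays. Inmt, an amine methyltransferase, stood at 5.51, 5.31, 7.16, 9.93, 11.74 and 10.88, a difference of 1.82. Fam107a, an actin-associated protein, stood at 5.09, 5.19, 5.53, 8.55, 10.27 and 10.33, a difference of 1.72. Cbx7, a Polycomb protein, stood at 6.15, 5.90, 5.96, 9.38, 10.91 and 10.52, a difference of 1.52. Inmt, Fam107a and Cbx7 were all at their lowest on days 0 to 3.

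Further higher genes were Rab6b, a Golgi GTPase, at 1.76, Camk2n1, an inhibitor of CaM kinase II, at 1.67, Eef2k, the kinase that slows translation elongation, at 1.54, and Pxmp2, a peroxisomal membrane protein, at 1.65. Glucocorticoid-responsive genes had 2 of 28 detected members at least 2-fold higher, against 1.29% of all genes, 21 above 0, against 4201 of all 8273, and a median of 0.30. The 2 were Hsd11b1, which regenerates active glucocorticoid, and Glul, glutamine synthetase. Hsd11b1 stood at 9.31, 8.08, 9.70, 12.02, 13.17 and 12.18, a difference of 1.16, and Glul differed by 1.05. Dusp1 and Cebpd, early targets of the receptor, differed by -0.32 and -0.33. Of the 107 higher genes 8 are in any of the lists and of the 354 lower ones 97, against 651 of all 8273 genes. The lists were chosen with earlier results of these data known, so these counts are not a result about the genes.

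Days 3 and 14 lie on either side of the step and share no array with it. The 354 lower genes had a median difference of -1.35 from day 3 to day 14, and 292 of them, or 82.49%, were lower on day 14. Of all 8273 genes 49.46% were lower on day 14. At least 2-fold lower were 215 of the 354, or 60.73%, against 8.22% of the 8273 genes and 9.91% of the genes detected on day 3 or day 14. The 107 higher genes had a median of 1.48, with 98 of them higher on day 14. At least 2-fold higher were 74 of them, against 9.92% and 9.77% of those 2 sets. The comparison of days 3 and 14 also spans the steps before day 6 and after day 10.

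The groups did not behave alike there. All 30 mitosis genes and all 28 sterol and fatty acid genes were lower on day 14 than on day 3, with medians of -3.66 and -1.78. The fibrillar collagens were lower in 6 of 7, with a median of -1.10. The contractile genes were lower in 12 of 24, with a median of -0.01. The basement membrane genes were lower in 8 of 16, also with a median of -0.01. Members of these last groups went both ways. From day 3 to day 14 Actg2 differed by -1.31, Tagln by -0.81, Sparc by -1.53 and Col15a1 by -2.94. In the other direction, Myh11 differed by 3.135, the contractile gene Lmod1 by 1.678 and Col4a6 by 0.612. The sum of the contractile genes' linear levels was 551121 on day 0 and 385637 on day 3, so it was already lower on day 3 than on day 0.

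**Figure D5:**
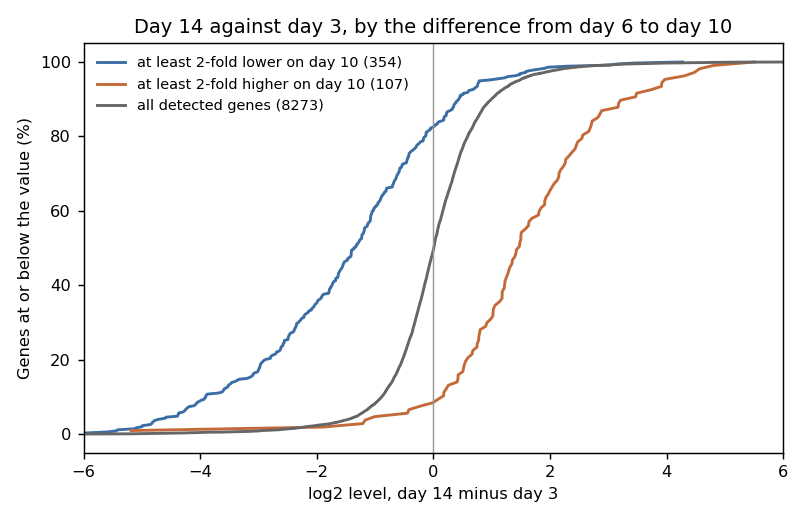
Cumulative share of genes (percent) by their log2 difference from day 3 to day 14, for genes at least 2-fold lower on day 10 than day 6 (354, blue), at least 2-fold higher (107, orange) and all detected genes (8273, grey). Of the blue group 82.49% lie below 0, against 49.46% of all genes.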

How the data were processed

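For every probe on every array, the deposited table gives an intensity with no scaling across arrays. Next to it stands a detection p-value, named so per the file headers. A further deposited table gives a signed score, the authors' fold of each array over the control. For that table's scaling and the scanner software, the sources used here state nothing. The columns C and T1 to T5 were taken as days 0, 1, 3, 6, 10 and 14. On each array 17785 of 17785 values equalled those of the labelled sample in the series matrix, within a tolerance of 1e-05.

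Signals of all 6 arrays were background corrected with nec of limma 3.58.1 (R 4.3.3, offset 16), then quantile normalized and taken to log2. These steps were also run on simulated data, a copy of the day 6 array with known changes added to probes of middle signal. Genes weak or near the array maximum on day 6 were not covered by that run. Left out were 6 entries without a probe identifier and 30 repeats. Symbols came from GEO's platform annotation: 13805 of the 46613 probes kept had 1 symbol, and 32808 had several or none here. The brightest probe on average stands for its gene. With 1 array a day no test was run. Precision is limited by array number and by signal over background.

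Named genes are the 15 largest differences in each direction among genes detected on both arrays, the 6 largest bounds each way, the 5 largest members of each of 38 lists, every detected fibrillar collagen and contractile gene, Sox11 and the 2-fold genes near the array maximum. Some further members (such as Pcna, Mcm4, Mcm7, Mvk, Elovl6, Fasn, Acaca, Srebf2, Dusp1 and Cebpd) were named after their values were seen. Members and lists were chosen with earlier results of these data known, and lists share some genes. The alternatives were other scaling, background correction, probe choice, detection filter and fold.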

Additional observations from a re-analysis of the deposited data

How the results depend on the processing

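No paired analysis was possible because each day has 1 array and the labels number no replicates. Under the 10 alternatives compared per gene, 0 of the 114 named genes at least 2-fold apart changed sign. The alternatives that change only the detection filter or leave out genes near the array maximum keep the same differences, so no sign could change in them. Of the 114 genes, 84 remained among those detected on both arrays and 108 without the genes near the maximum. Without background correction 93 of the 114 were still at least 2-fold apart, and by the authors' folds also 93. Among the other probes of these genes, 1, for Tpm4, had the opposite sign. Of the 38 lists, 8 had a median that changed sign in a setting, all with a median between -0.07 and 0.02 as reported. The 354 lower and 107 higher genes became 190 and 46 without background correction, 191 and 46 in the ratio of folds from the authors' deposited table, and 215 and 69 among genes detected on both arrays. At 1.5-fold the counts were 927 and 529, and at 3-fold 108 and 17. Counted over probes, in alternatives chosen after seeing the data, 219 probes with a symbol were higher, and over every probe 545 were lower and 426 higher. The share of lower genes, 76.79%, was 66.67% without scaling between arrays, 80.51% without background correction, 80.59% in the authors' folds, 63.67% at 1.5-fold, 86.4% at 3-fold, 67.75% over probes with a symbol and 56.13% over every probe. The median of the mitosis list was -0.82 among genes detected on both arrays. Acta1, the only skeletal muscle marker, differed by -3.42 without background correction, by -4.03 with an offset of 50 and by -3.40 in the authors' folds. Of the other steps, day 0 to day 1 had 567 higher genes under median scaling, 185 lower and 641 higher without scaling, and 153 and 181 without background correction. Day 1 to day 3 had 721 lower genes without scaling and 302 without background correction. Day 10 to day 14 had 10 lower and 30 higher genes without background correction, and 13 lower with an offset of 50. The causes of these shifts were not tested, beyond the smaller or larger sets that some alternatives count. Weak signals near background and signals near the array maximum limit the sizes given, and 1 array a day leaves the spread between cultures unmeasured.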

Other observations

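The histone genes of the replication-dependent clusters, looked at after their values were seen, did not follow the replication and mitosis genes from day 6 to day 10. All 8 detected H4 genes were higher on day 10 than on day 6, with a median difference of 1.15. At least 2-fold higher were 6 of the 8, against 1.29% of all genes. H4c12 had the largest difference of the 8, 1.651, but was detected on day 10 only. Its day 6 level was not above background, so that size is uncertain. H4c4, at 6.995 on day 6, lay close to the lowest detected level of that array, 6.91. H4c9 stood at 10.08, 10.48, 9.94, 8.27, 9.55 and 8.93 on days 0, 1, 3, 6, 10 and 14, and H4c8 at 10.24, 9.20, 9.83, 9.56, 10.70 and 10.62. All 4 detected H3 genes and all 22 detected H2A and H2B genes were also higher, with medians of 0.68 and 0.34, and 1 of the latter, H2bc6, was at least 2-fold higher. H4 genes encode the same protein and their sequences are close, so probes may share signal and the 8 are not separate measurements. From day 3 to day 14, 3 of the 8 H4 genes were higher and the median was -0.14. Over the same days 13 of the 22 H2A and H2B genes were higher, with a median of 0.46. Several H2A genes were lower there, as the mitosis genes were: H2ac12 differed by -2.96, H2ac6 by -2.60 and H2ac13 by -2.56.

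Psmc1, a proteasome subunit, stood at 10.83, 10.70, 10.55, 5.24, 10.61 and 5.36. It was not above background on days 6 and 14 and was at least 12.98-fold higher on day 10 than on day 6, which rests on a single probe.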
